A study of Mus musculus with 2 samples.

Results

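The class II genes of the major histocompatibility complex (MHC) were followed through the cells of mouse bone by 5 genes, Cd74, H2-Aa, H2-Ab1, H2-Eb1 and Ciita, out of 27645 genes with a count in the Control library and 27511 in the Dach1OE library. The genes were chosen by name, and all 5 were found in both libraries. MHC class II molecules are pairs of α and β chains that present peptides to CD4+ T cells, and they are known above all from dendritic cells, macrophages and B cells. In the endoplasmic reticulum the invariant chain, encoded by Cd74, guards the peptide groove, and the H2-DM proteins later help to exchange its remnant for a peptide. The transactivator Ciita switches the genes on together with factors that bind the X and Y boxes of their promoters, and interferon-γ induces Ciita in endothelial and other non-haematopoietic cells.

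Single cells of femur and tibia at postnatal day 30 were sequenced after lineage-positive, CD45+ and CD117+ cells had been depleted, so the cells that normally carry class II had largely been removed. The Control mice carried Dach1OE +/f, a conditional Dach1 transgene, and the Dach1OE mice carried Apj CreERT2 and Dach1OE +/f, with a tamoxifen-inducible Cre that acts in capillary endothelial cells (ECs). Both groups were C57BL/6, male and female, and received tamoxifen on postnatal days 1 and 2. Each group gave 1 library from a pool of 2 mice, so there was no replicate and no test, and 1049 cell barcodes occurred in both libraries. The filters kept 26466 of 28720 Control cells and 29317 of 32028 Dach1OE cells, with medians of 3794 and 4055 unique molecular identifiers (UMIs).

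Cells were sorted into types by marker genes that held none of the 5 genes. This gave 9459 Control and 9690 Dach1OE ECs, in which all 10 endothelial markers were higher than in the other cells, the lowest by 17.0-fold in each library. The subtype markers were at least 2-fold higher in their own subtype in all but the metaphyseal ECs, where 8 and 6 of 10 were. Since the same markers defined the types and subtypes, this excess followed from the sorting and is no check of it. Other types did less well. Of 10 markers, 8 were at least 2-fold higher in osteoblast-lineage cells of each library (lowest 0.66- and 0.73-fold) and 8 in Control mural cells. In the few monocytes or macrophages 5 of 10 were, and in dendritic cells 3 and 4 of 10. ECs were divided into sinusoidal, metaphyseal, arterial, proliferating, lymphatic and type R cells, the last being the post-arterial capillaries of remodelling bone, and 3142 and 4244 ECs stayed unassigned. Chondrocytes numbered 4298 and 6097, marrow stromal cells 2945 and 1207, and the 9 classes of blood cells together 2996 and 3278. Only 3 and 7 cells met the B-lineage markers, 2 and 2 those of monocytes or macrophages, and 1 and 1 those of dendritic cells. Levels are given as CPM, the UMIs of a gene relative to all UMIs of the same cells on the usual scale of that unit, with exact 95% intervals that cover counting error only.

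H2-Aa and H2-Eb1 were the genes among the 5 with an entry in the promoter table, and a stretch of 110 bases before each start is shown because it holds the shared motifs. Capitals mark GCAAC, found in the core of the X box, and GATTGG, the Y box, whose reverse complement holds CCAAT. The sequences are from RefSeq on GRCm38.p6 and read 5′ to 3′ on the strand of the gene, at chr17:34287824-34287933 on the minus strand for H2-Aa and at chr17:34305757-34305866 on the plus strand for H2-Eb1.
H2-Aa: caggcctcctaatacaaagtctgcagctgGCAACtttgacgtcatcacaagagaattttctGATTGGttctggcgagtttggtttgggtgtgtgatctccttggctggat
H2-Eb1: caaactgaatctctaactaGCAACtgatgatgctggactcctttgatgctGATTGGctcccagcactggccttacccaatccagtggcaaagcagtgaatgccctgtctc
GCAAC began 81 bases before the H2-Aa start and 91 bases before the H2-Eb1 start, and GATTGG followed after 32 and 31 bases, counted from start to start. Both strands were searched in the 250 bases before each start for GCAAC followed by GATTGG with starts 28 to 36 bases apart, and the motifs do not overlap at that spacing. The pair occurred in 54 of 32851 promoters, or 0.164%, against 29.9% for GCAAC alone and 14.6% for GATTGG alone. H2-Oa, H2-Ob and H2-Eb2, further genes of the class II region, also held the pair. It was not among the letters searched in the 2 entries of H2-DMa or in those of H2-DMb1 and H2-DMb2, where GATTGG stood alone in 3 of the 4.

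H2-Ab1, the β chain of the I-A molecule, was the class II gene with the most UMIs, 2738 in Control and 3400 in Dach1OE. Blood cells held 11.5% and 10.5% of them, with 13.4% and 12.8% of the UMIs of all genes, while chondrocytes held 56.1% and 72.0%, with 31.2% and 36.02% of the UMIs of all genes, and ECs 18.7% and 7.94%, with 23.4% and 20.2%. H2-Aa, its α chain partner, had 414 and 360 UMIs, of which ECs held 41.8% and 35.3%, chondrocytes 34.1% and 53.9% and blood cells 1.45% and 1.39%. Cd74 had 270 and 178 UMIs, with 40.7% and 43.8% in ECs. H2-Eb1, the β chain of I-E, had 260 and 224 UMIs, and Ciita 70 and 65.

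The level of H2-Ab1 fell into steps. It was 35.2 CPM in Control chondrocytes (interval 33.4 to 37.0) and 41.7 in Dach1OE chondrocytes (40.1 to 43.4), the highest of the large non-blood classes. ECs followed with 15.6 CPM in Control (14.3 to 17.0) and 8.19 in Dach1OE (7.24 to 9.23), and marrow stromal cells with 5.57 and 4.06. Osteoblast-lineage cells stood at 1.56 and 0.996 CPM, mural cells at 1.45 and 0.842, fibroblasts at 1.03 and 0.538, and the last 3 could not be ordered since their intervals overlapped. Metaphyseal stromal cells, 207 and 138 in number, gave 3 and 1 H2-Ab1 UMIs. Chondrocytes had been chosen beforehand as a cell type that should lack class II, and the data went against that choice, so the values of mural, fibroblast and osteoblast-lineage cells are given beside the others. These were picked as low after their values had been seen, and nothing is read from their being lower.

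H2-Aa and Cd74 had another order. Outside blood H2-Aa was highest in ECs, at 5.28 CPM in Control (4.52 to 6.13) and 3.85 in Dach1OE (3.21 to 4.59), whose interval overlapped that of chondrocytes at 3.23 and 3.31. Marrow stromal cells had 2.73 and 1.01 CPM, osteoblast-lineage cells 0.284 and none, and mural cells and fibroblasts had no H2-Aa UMI in either library, which by the limit of 3 UMIs for a count of 0 allows up to 1.09 CPM in Control mural cells and 1.54 in Control fibroblasts. Cd74 was 3.36 CPM in Control ECs (2.76 to 4.05) and 2.37 in Dach1OE ECs (1.87 to 2.95), 1.42 and 1.19 in chondrocytes, 3.06 and 0.254 in marrow stromal cells, and at most 0.726 in mural, fibroblast and osteoblast-lineage cells. One Control marrow stromal cell with 18 pan-blood UMIs gave 16 of the 25 H2-Aa and 16 of the 28 Cd74 UMIs of that class, and without it the levels there were 0.984 CPM (0.450 to 1.87) and 1.31 CPM (0.678 to 2.29). Read against the other non-blood cells, Cd74 was 1.35 higher on the log2 scale in Control ECs (0.94 to 1.77) and 1.52 higher in Dach1OE ECs (1.05 to 2.01).

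H2-Eb1 was highest in marrow stromal cells, although their intervals overlapped those of mural cells. Its level there was 5.68 CPM in Control (4.24 to 7.45) and 4.06 in Dach1OE (2.32 to 6.59), against 2.54 and 2.74 in mural cells, 1.86 and 1.74 in chondrocytes, 1.71 and 1.43 in ECs, 1.03 and 1.08 in fibroblasts and 0.426 and 0.367 in osteoblast-lineage cells. In C57BL/6 mice the α chain of I-E is not made, so this transcript has no protein partner. An antisense gene, Gm20513, overlaps H2-Eb1, but it had 3 UMIs at most in ECs or chondrocytes of either library. Ciita was rare everywhere: 28 and 19 UMIs in ECs (0.855 and 0.577 CPM), 12 and 8 in chondrocytes (0.275 and 0.136), 8 and 20 in osteoblast-lineage cells (0.568 and 1.05), 2 and 0 in marrow stromal cells, and 0 in mural cells, fibroblasts and metaphyseal stromal cells.

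**Figure D1:**
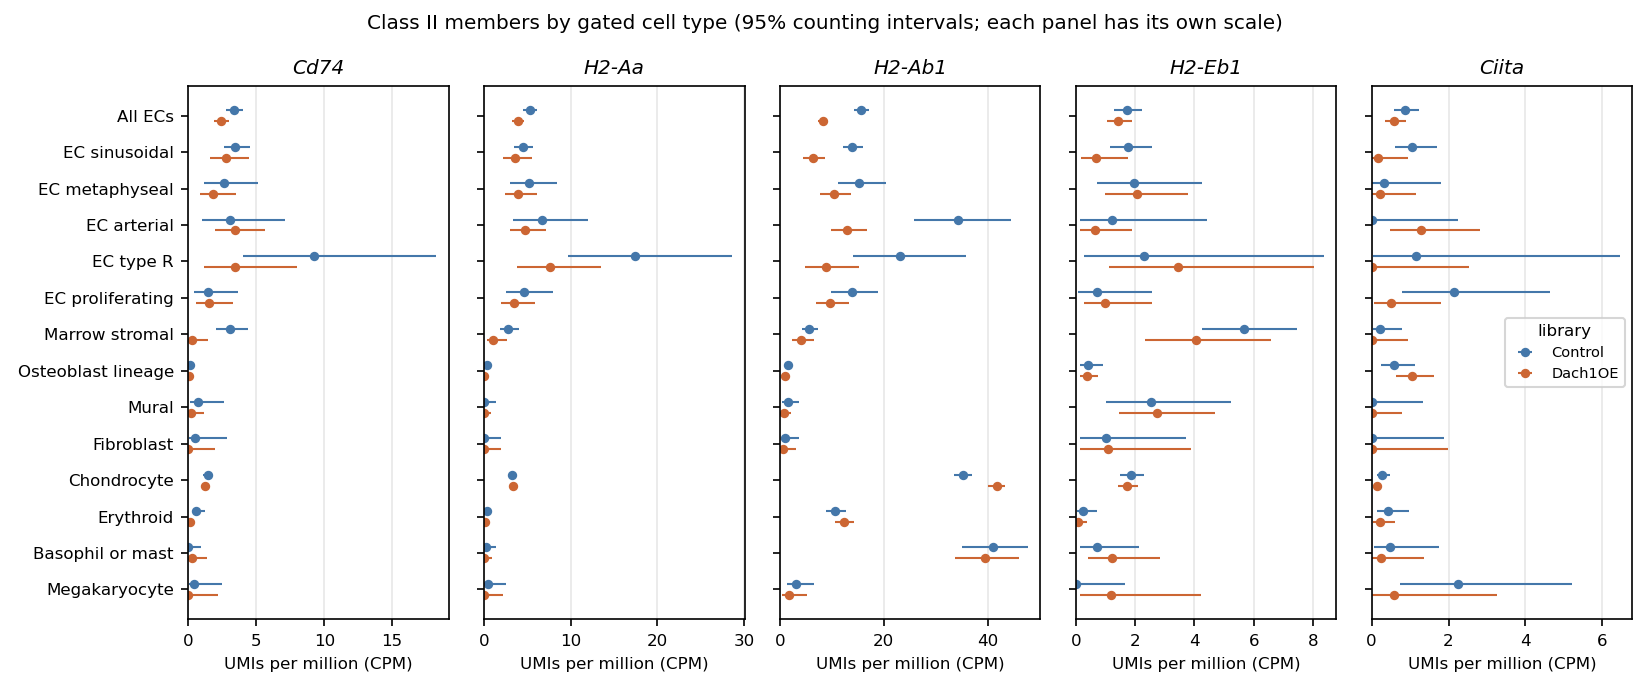
Level of each of the 5 genes (CPM) in the cell types drawn, Control in blue and Dach1OE in orange, with 95% counting intervals and a separate linear scale for each gene. Among the types drawn, H2-Ab1 is highest in chondrocytes (35.2 and 41.7 CPM) and basophils or mast cells (41.1 and 39.5), whereas Cd74 and H2-Aa are highest in type R ECs of Control (9.26 and 17.4).

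Among blood cells the same imbalance appeared. Basophils or mast cells had H2-Ab1 at 41.1 CPM in Control (169 UMIs) and 39.5 in Dach1OE (163 UMIs), but Cd74 had 0 and 1 UMIs and H2-Aa 1 and 0. Erythroid cells had H2-Ab1 at 10.7 and 12.2 CPM and at most 7 UMIs of Cd74 and 4 of H2-Aa. Megakaryocytes had 7 and 3 H2-Ab1 UMIs, and granulocytes or myeloid progenitors, only 38 and 52 cells, had 10 and 3. The few B-lineage cells held 10 Cd74 UMIs in Control and 7 in Dach1OE, equal to 2699 and 320 CPM, above every other class with a Cd74 UMI.

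The ratio between the α and β chains of I-A differed between ECs and chondrocytes. Of all H2-Ab1 and H2-Aa UMIs, H2-Ab1 made up 74.7% in Control ECs (71.3 to 78.0) and 68.0% in Dach1OE ECs (63.2 to 72.6). In chondrocytes the share was 91.6% (90.2 to 92.9) and 92.7% (91.6 to 93.6), in erythroid cells 97.0% and 98.9%, and in basophils or mast cells 99.4% and 100%. Not all types could be told apart, since marrow stromal cells of Control, at 67.1% (55.4 to 77.5), overlapped ECs, osteoblast-lineage cells of Control, at 84.6% (65.1 to 95.6), overlapped ECs and chondrocytes, and erythroid cells of Control (92.5 to 99.2) overlapped chondrocytes. Thus 10.9 and 12.6 H2-Ab1 UMIs were counted for each H2-Aa UMI in chondrocytes, and 2.96 and 2.13 in ECs. Within ECs, type R cells were at the other end, with 57.1% in Control (39.4 to 73.7) and 54.2% in Dach1OE (32.8 to 74.4), with wide intervals.

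Chondrocytes, the cells of cartilage, also carried the peptide-loading genes. H2-DMa, the α chain of H2-DM, was 28.05 CPM in Control and 34.9 in Dach1OE chondrocytes against 1.86 and 2.03 in ECs. H2-DMb1, a β chain of H2-DM, was 36.5 and 44.3 CPM against 1.31 and 1.06, and H2-DMb2, its near copy, 15.7 and 21.4 against 0.183 and 0.273. Because H2-DMb1 and H2-DMb2 are so alike, the split of UMIs between them is uncertain, and H2-DMa shares bases with Brd2. H2-Oa and H2-Ob, the chains of the H2-DM inhibitor H2-O, stayed low in chondrocytes, at 0.183 and 0.102 CPM and at 0.206 and 0.409. H2-Eb2, a further β chain gene, had 2 UMIs in Control ECs, 2 in Control chondrocytes and none in Dach1OE.

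Against all other non-blood cells, H2-Ab1 was 1.86 higher on the log2 scale in Control chondrocytes (1.726 to 2.002) and 3.08 higher in Dach1OE chondrocytes (2.91 to 3.26). H2-DMa was 4.09 and 4.37 higher and H2-DMb1 4.34 and 4.39. Of the 5 class II chain genes 4 were tested, and H2-Ab1 alone was at least 2-fold higher in both libraries, as were 3 of 4 tested loading genes, beside 9.47% of all 17942 genes. H2-Aa differed by -0.03 in Control (-0.35 to 0.29) and by 0.67 in Dach1OE (0.34 to 1.003). In the other direction, 24.0% of the 17942 genes were at least 2-fold lower in chondrocytes of both libraries. Of the class I presentation genes 8 of 9 were, among them B2m, the light chain of class I, at 191 and 190 CPM against 3570 and 2915 in ECs. Of the interferon-γ pathway 5 of 7 genes and of the co-stimulatory ligands 4 of 6 were at least 2-fold lower, beside the same 24.0%, and these lists are short.

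**Figure D2:**
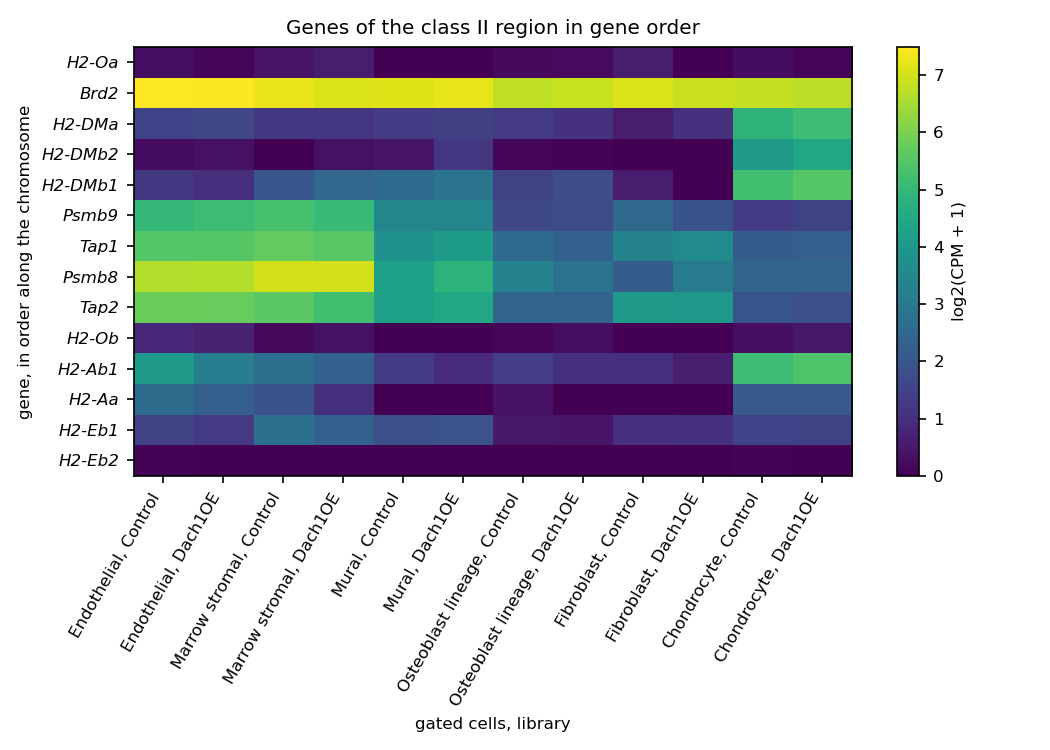
Level (log2 of CPM + 1, colour) of protein-coding genes of the class II region of chromosome 17, in gene order from top to bottom, in non-blood cell types of both libraries. H2-DMa, H2-DMb2, H2-DMb1 and H2-Ab1 are high in chondrocytes, and Psmb9, Tap1, Psmb8 and Tap2, which lie between H2-DMb1 and H2-Ob, are high in ECs and marrow stromal cells.

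The neighbours along the chromosome therefore followed different cell types. The region from H2-Oa to H2-Eb2 (chr17:34092340-34341412 on GRCm38, GENCODE vM21) holds 22 annotated genes, of which 18 were in the count tables. H2-Ab1 lies at chr17:34257689-34269419 on the plus strand, H2-Aa at chr17:34282744-34287823 on the minus strand and H2-Eb1 at chr17:34305867-34316674 on the plus strand. Psmb8, Psmb9, Tap1 and Tap2, which cut and transport peptides for class I, lie between the H2-DM genes and H2-Ab1. Psmb8 was 98.0 and 99.8 CPM in ECs, 129 and 126 in marrow stromal cells and 4.24 and 4.47 in chondrocytes. Chondrocytes were thus below ECs and marrow stromal cells for Psmb8 and above them for H2-DMb1 and H2-Ab1. Ciita lies on another chromosome (chr16:10480059-10528418) and shares bases with Dexi, and Cd74 lies on yet another.

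Co-detection in single cells was examined next. Of 115 Control ECs with an H2-Aa UMI, 42.6% also had H2-Ab1 (33.4 to 52.2), compared with 3.47% of those without H2-Aa. In Dach1OE the shares were 42.3% and 1.63%. Cells with an H2-Aa UMI were deeper, with medians of 4053 and 3715 UMIs against 2798 and 2802 in ECs without one. Cells with most of the members were rare, as only 29 Control and 20 Dach1OE ECs held 3 or 4 of Cd74, H2-Aa, H2-Ab1 and H2-Eb1. These cells carried 26.6% and 33.9% of the summed UMIs of these 4 genes in ECs, and 16 and 9 of them had no UMI of the 10 pan-blood genes. The 10 richest ECs held 14.8% and 25.3% of the UMIs, and the richest Dach1OE EC held 40 of 522.

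Chondrocytes differed in this respect. Of those with H2-Aa, 53.9% in Control and 61.0% in Dach1OE also had H2-Ab1, against 22.0% and 24.0% of those without, and the 10 richest cells held only 5.11% and 3.06% of the UMIs. H2-DMb1 was found in 35.96% and 38.6% of chondrocytes with an H2-Ab1 UMI and in 22.1% and 24.3% of those without. The former were deeper, with medians of 12638 against 9368 UMIs in Control, and the part of depth in these shares was not tested.

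Shares of positive cells were compared at equal depth. When each cell was thinned to 1000 UMIs, a UMI of any of the 4 genes was seen in 2.02% of ECs in Control (1.74 to 2.32) and in 1.04% in Dach1OE (0.848 to 1.27), where 235 and 304 shallower ECs were left out. Chondrocytes had 3.90% (3.34 to 4.52) and 4.05% (3.57 to 4.58), with 13 and 25 cells left out. Mural cells had 0.282% and 0.302% and osteoblast-lineage cells 0.193% and 0.113%. Unthinned, the shares were 5.25% and 2.78% in ECs (median depths 2811 and 2809 UMIs) and 25.2% and 27.2% in chondrocytes (10126 and 9552), against 1.03% and 0.794% in mural cells (2303 and 2025).

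Blood-cell transcripts were measured beside the class II genes. The 10 pan-blood genes summed to 174 CPM in Control ECs and 137 in Dach1OE ECs, of which Lcp1, an actin-bundling protein, gave 4467 of 5704 and 2898 of 4504 UMIs. All 10 B-lineage markers had some UMIs in ECs (34.5 and 38.0 CPM in sum), with 987 of 1130 and 1158 of 1252 from Fcrla. All 10 monocyte or macrophage markers did so too (18.4 and 19.8 CPM), and 9 of 10 dendritic markers (226 and 146 CPM), mostly Irf8 and Zbtb46, while Cd209a was at 0. In type R ECs the B-lineage markers summed to 39.4 and 46.7 CPM, with intervals that overlapped those of all ECs in both libraries, from 2 and 3 of the 10 genes and with 33 of 34 and 65 of 68 UMIs from Fcrla. The monocyte or macrophage markers there summed to 16.2 and 30.2 CPM, from 2 and 4 of 10 genes, and F13a1 gave 30 of the 44 UMIs in Dach1OE. In Dach1OE that sum (22.0 to 40.6) lay above the level in all ECs (18.3 to 21.3). Dendritic markers were 70.6 and 78.4 CPM and pan-blood genes 72.9 and 88.0, both below all ECs. Cd79a, Cd79b and Pax5 of the B lineage and C1qa, C1qb and C1qc of macrophages were at 0 in type R ECs of both libraries, and the part of these lists in the class II level was not tested. Basophils or mast cells and erythroid cells were the blood classes with the most H2-Ab1 UMIs, but their markers were not summed in ECs. ECs with no pan-blood UMI had the 4 genes at 25.9 CPM in Control (6134 cells) and 12.0 in Dach1OE (7228 cells), and ECs with such a UMI at 26.1 and 23.7. The level was thus as high without pan-blood transcripts in Control and lower without them in Dach1OE. The richest Dach1OE EC, with 40 of the 522 UMIs, held 1 pan-blood UMI and so counted in the 23.7 CPM, and no level without it is given here. In chondrocytes the respective levels were 40.8 and 47.4 against 44.4 and 49.9 CPM.

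Class II genes were lower in ECs of the Dach1OE library. The make-up of the ECs differed between the libraries. Sinusoidal ECs were 43.2% of ECs in Control and 17.5% in Dach1OE, arterial ECs 5.12% and 13.4%, and unassigned ECs 33.2% and 43.8%, and values by subtype are given further below. H2-Ab1 was 15.6 CPM in Control and 8.19 in Dach1OE (512 and 270 UMIs), with a log2 ratio of -0.93 (-1.15 to -0.72). H2-Aa was 5.28 and 3.85 CPM, a log2 ratio of -0.45 (-0.80 to -0.12), and Cd74 3.36 and 2.37 CPM, a log2 ratio of -0.50 (-0.94 to -0.07). For H2-Eb1 (-0.26, -0.85 to 0.32) and Ciita (-0.57, -1.49 to 0.32) the intervals spanned 0. Cd74, H2-Aa, H2-Ab1 and H2-Eb1 together were 26.0 CPM in Control (851 UMIs) and 15.8 in Dach1OE (522 UMIs), a log2 ratio of -0.71 (-0.87 to -0.55). None of the 4 tested chain genes reached a 2-fold change, beside 3.51% of 16298 genes at least 2-fold lower and 3.70% at least 2-fold higher. Their median log2 ratio was -0.48, and that of all genes 0.03. With 1 library per group these intervals hold for the counts in these libraries, and the difference between mice was not measured. The lower level was not limited to ECs. In cells that met no type the 4 genes together were 28.1 CPM in Control and 17.7 in Dach1OE, a log2 ratio of -0.66 (-0.87 to -0.46).

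The other genes of the pathway were set beside all 16298 genes tested in ECs. Of these, 3.51% were at least 2-fold lower in Dach1OE and 3.70% at least 2-fold higher, so few or no calls are usual in lists this short. None of the 3 tested loading genes, 4 processing genes, 8 regulators, 7 interferon-γ pathway genes, 4 turnover genes or 9 class I genes differed 2-fold in ECs, and 1 of 5 co-stimulatory ligands did. That gene was Pdcd1lg2 (15 and 7 UMIs). H2-DMa had 0.13 (-0.40 to 0.65), H2-DMb1 -0.31 (-0.99 to 0.37) and H2-Ob -0.25 (-1.14 to 0.63). The remaining loading genes, H2-DMb2 (6 and 9 UMIs) and H2-Oa (7 and 3), were too rare to be tested. Among the regulators the log2 ratios were 0.18 for Rfx5, 0.12 for Rfxap and 0.22 for Rfxank, which form the complex at the X box, -0.07 for Creb1, and -0.08 for Nfya, -0.06 for Nfyb and 0.02 for Nfyc, which bind the Y box.

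Some genes of these lists differed by less than 2-fold but beyond counting error. At high counts even small differences pass that limit, and the share of all genes that did so is not given. Nothing particular to the pathway is therefore read from these values. Lgmn, an asparagine-cutting protease of endosomes, was 399 CPM in Control and 241 in Dach1OE ECs (log2 ratio -0.73), and Ctsl, which cleaves the invariant chain, 1496 and 1285 (-0.22). Jak1, a kinase of the interferon-γ receptor, was 775 and 467 CPM (-0.73), whereas Ifngr1, a chain of that receptor, was 163 and 161 (-0.02), an interval that spanned 0. Cd40 was 18.3 and 26.7 CPM (0.55) and Cd274, the checkpoint ligand PD-L1, 1.83 and 3.58 (0.97). B2m was 3570 and 2915 CPM (-0.29), H2-D1, a class I heavy chain, 1415 and 1515 (0.10), Mif, a ligand of Cd74, 55.2 and 74.4 (0.43) and March8, a ligase that marks class II for breakdown, 31.7 and 25.4 (-0.32).

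Read against other non-blood cells, ECs of both libraries had at least 2-fold more Cd74, the only one of 4 tested chain genes to do so, beside 17.2% of 17942 genes. In the same comparison 7 of 9 class I genes and 5 of 7 interferon-γ pathway genes were at least 2-fold higher. In the other direction 3 of 4 tested loading genes and 2 of 4 turnover genes were at least 2-fold lower in ECs of both libraries, beside 16.1% of all genes. The other cells included chondrocytes, which held 68.0% and 76.9% of all H2-DMa UMIs and 82.5% and 86.5% of those of H2-DMb1. In marrow stromal cells H2-DMa was 1.31 and 1.27 CPM (12 and 5 UMIs), against 1.86 and 2.03 in ECs. H2-DMb1 was 3.06 and 4.56 CPM there, against 1.31 and 1.06 in ECs. Chondrocytes also held 56.1% and 72.0% of the H2-Ab1 UMIs.

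In chondrocytes H2-Ab1 alone among the 5 genes was higher in Dach1OE beyond its interval. It was 35.2 CPM in Control (1535 UMIs) and 41.7 in Dach1OE (2447 UMIs), a log2 ratio of 0.25 (0.15 to 0.34), and the 4 genes together had 41.7 and 48.0 CPM, which gives 0.20 on the log2 scale (0.12 to 0.29). H2-DMa (0.31) and H2-DMb1 (0.28) were also higher in Dach1OE. In Y-linked chondrocytes alone the intervals of H2-DMa and H2-DMb1 spanned 0, and in Xist chondrocytes alone that of H2-Ab1 did. H2-Aa (0.03), Cd74 (-0.25), H2-Eb1 (-0.09) and Ciita (-1.01) had intervals that spanned 0. None of the 4 chain genes was at least 2-fold lower or higher, beside 2.47% and 0.981% of 17536 genes.

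**Figure D3:**
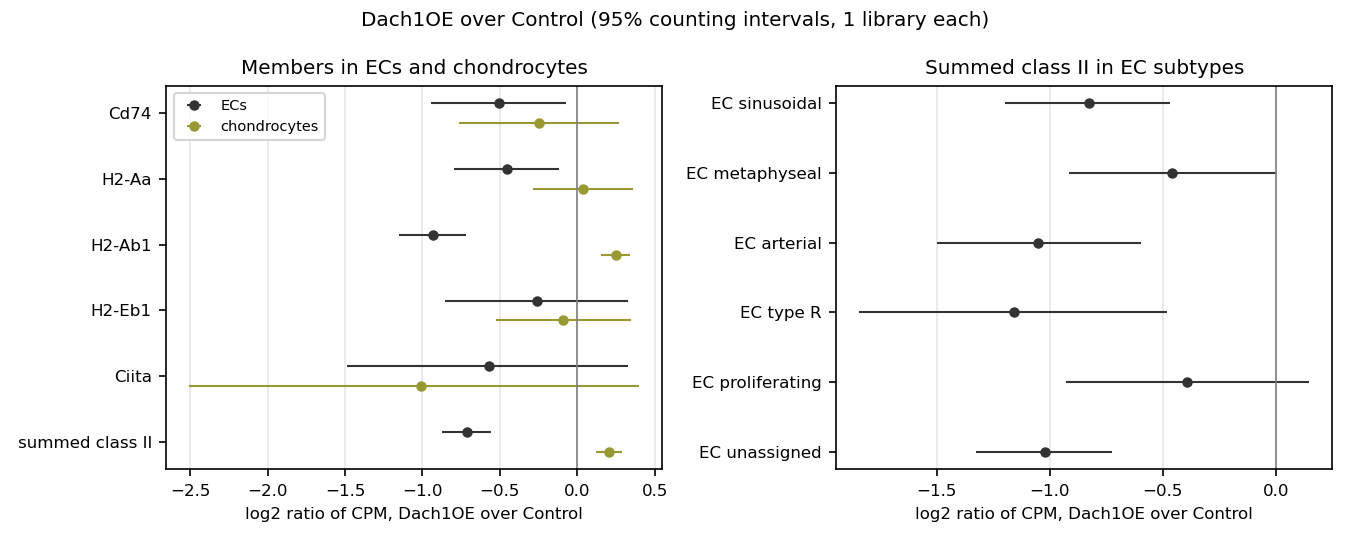
Log2 ratio of CPM, Dach1OE over Control, with 95% counting intervals and 1 library per group. On the left are the 5 genes and the sum of Cd74, H2-Aa, H2-Ab1 and H2-Eb1 in ECs (dark) and chondrocytes (olive), where H2-Ab1 lies at -0.93 and 0.25. On the right is the sum in EC subtypes, which lies between -1.16 in type R and -0.39 in proliferating ECs.

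With all cells pooled, whether or not they had Xist or Y-linked UMIs, sinusoidal, arterial, type R and unassigned ECs were lower in Dach1OE. The 4 genes together were 23.6 and 13.3 CPM in sinusoidal ECs (-0.83, -1.20 to -0.47), 45.2 and 21.8 in arterial ECs (-1.05, -1.498 to -0.60) and 52.1 and 23.4 in type R ECs (-1.16, -1.84 to -0.48). Unassigned ECs had 26.5 and 13.04 CPM (-1.02, -1.32 to -0.72). In metaphyseal ECs, at 25.1 and 18.2 CPM, the interval of -0.46 only just excluded 0, and in proliferating ECs, at 20.6 and 15.7 CPM, that of -0.39 spanned 0 (-0.93 to 0.15). Lymphatic ECs, 76 and 28 cells, had 2 UMIs in Control and none in Dach1OE, so that, by the same limit of 3 UMIs, up to 37.3 CPM could have gone undetected.

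H2-Ab1 was 34.2 and 12.96 CPM in arterial ECs (-1.40), 13.9 and 6.32 in sinusoidal ECs (-1.14), 23.1 and 8.94 in type R ECs (-1.37) and 15.3 and 5.81 in unassigned ECs (-1.40), each with an interval below 0. In metaphyseal ECs (15.3 and 10.4 CPM, -0.55) and proliferating ECs (13.9 and 9.72 CPM, -0.51) the interval spanned 0. For H2-Aa the interval excluded 0 only in unassigned ECs (5.59 and 3.32 CPM, -0.75), and for Cd74, H2-Eb1 and Ciita in no subtype. A single unassigned EC of Dach1OE, however, held 16 of the 40 H2-Aa UMIs. Without the richest unassigned EC of each library, an alternative added after the data had been seen, H2-Aa was 5.03 and 1.99 CPM (-1.33, -2.12 to -0.58) and Cd74 3.31 and 1.66 (-0.995, -1.89 to -0.12), so that the interval of Cd74 then excluded 0.

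With all cells pooled, whether or not they had Xist or Y-linked UMIs, arterial and type R ECs had more class II than the other ECs. In Control, the 4 genes were 45.2 CPM in arterial ECs against 24.97 in all other ECs, 0.86 higher on the log2 scale (0.49 to 1.20), and in Dach1OE 21.8 against 14.9, 0.55 higher (0.23 to 0.87). In type R ECs they were 52.1 against 25.3 CPM in Control, 1.04 higher (0.58 to 1.48), and 23.4 against 15.5 in Dach1OE, 0.59 higher (0.05 to 1.10). Type R and arterial ECs did not differ beyond their intervals. Against the other ECs, arterial ECs had more H2-Ab1 (34.2 against 14.7 CPM in Control and 12.96 against 7.41 in Dach1OE), and type R ECs more H2-Aa (17.4 against 4.95 and 7.56 against 3.68, where the interval in Dach1OE just reached 0). In Control the intervals of arterial and type R ECs overlapped for H2-Ab1 (25.8 to 44.4 and 14.1 to 35.8 CPM) and for H2-Aa (3.35 to 12.02 and 9.72 to 28.6 CPM).

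Cd74 was 9.26 CPM in Control type R ECs against 3.20 in the others, from 8 UMIs, and 3.44 in Dach1OE, from 5. Arterial ECs had Cd74 at 3.05 and 3.46 CPM, sinusoidal ECs at 3.45 and 2.73, metaphyseal ECs at 2.61 and 1.84, unassigned ECs at 3.65 and 2.16 and proliferating ECs at 1.42 and 1.495, all with overlapping intervals. H2-Aa was 4.49 and 3.59 CPM in sinusoidal, 5.21 and 3.89 in metaphyseal, 6.72 and 4.75 in arterial and 4.62 and 3.49 in proliferating ECs. H2-Eb1 ranged from 0.648 to 3.44 CPM and Ciita from 0 to 2.13 CPM over these groups, with no ordering beyond the intervals. The excess in arterial and type R ECs rested on few UMIs, 74 and 101 in arterial and 45 and 34 in type R ECs, and it was not detectable in cells with Y-linked UMIs. There arterial ECs had 6.64 against 12.4 CPM in Control (2 UMIs, -0.91, -3.97 to 0.98) and 8.63 against 8.13 in Dach1OE (11 UMIs, 0.087, -0.98 to 1.02). Y-linked type R ECs had 5.56 against 12.4 CPM in Control (1 UMI, -1.16, -6.47 to 1.35) and 6.44 against 8.29 in Dach1OE (3 UMIs, -0.36, -2.68 to 1.24). Among Xist cells of Control the excess was only 0.30 in arterial ECs (-0.29 to 0.83) and 0.66 in type R ECs (-0.07 to 1.30), with intervals that spanned 0. Among Xist cells of Dach1OE it was 0.78 (0.31 to 1.22) and 1.19 (0.46 to 1.85). In Control, Xist cells gave 30 and Y-linked cells 2 of the 74 arterial UMIs, and 20 and 1 of the 45 type R UMIs. In Dach1OE they gave 53 and 11 of 101, and 20 and 3 of 34. The other UMIs came from cells in neither group, whose level is not given on its own.

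Both libraries contained cells of a female and of a male mouse, which were told apart by Xist, the RNA of the inactive X chromosome, and by UMIs of 4 Y-linked genes. Cells with both kinds of UMI or with neither were in neither group. The groups held 3023 and 2284 of 9459 Control ECs and 2991 and 2269 of 9690 Dach1OE ECs. ECs with Xist and no Y-linked UMI had far more class II. The 4 genes were 40.9 CPM (465 UMIs, 3023 cells) against 12.3 in ECs with a Y-linked UMI and no Xist (114 UMIs, 2284 cells) in Control, 1.74 higher on the log2 scale (1.44 to 2.05). In Dach1OE they were 23.1 CPM (252 UMIs, 2991 cells) against 8.20 (76 UMIs, 2269 cells), 1.49 higher (1.12 to 1.88). Since each library pooled 2 mice, each kind of cell came from a single mouse per library, and sex and mouse cannot be told apart.

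H2-Ab1 was 25.6 against 6.45 CPM in Control and 13.5 against 3.35 in Dach1OE, log2 differences of 1.99 and 2.01. H2-Aa (1.21 and 1.02) and H2-Eb1 (1.35 and 1.57) were higher in Xist cells too, and Cd74 by 1.76 in Control and 0.68 in Dach1OE, where its interval spanned 0 (-0.18 to 1.59). Only 19 of 13123 genes, or 0.145%, were at least 2-fold higher in Xist ECs of both libraries. H2-Ab1, H2-Eb1 and H2-Aa were among them, 3 of the 4 members tested, as was H2-DMa, while 0 of 9 class I genes and none of the tested processing, regulator or interferon-γ pathway genes were. In Dach1OE H2-Aa (0.25 to 1.83) and H2-DMa (1.02, 0.04 to 2.08) only just passed 2-fold, and H2-Eb1 rested on 21 and 6 UMIs (0.21 to 3.17). No count without the richest EC of each library is given here. Xist was on the list by construction, since it defined the split. The list further held Gbp2b, an interferon-induced GTPase, Lyve1 and Ccl21a, which are known from lymphatic endothelium, and Fcer1a and Ms4a2, the chains of the IgE receptor of basophils and mast cells. Pan-blood genes summed to 183 against 159 CPM in Control and 148 against 120 in Dach1OE. Monocyte or macrophage markers were 22.8 CPM in Xist ECs (20.2 to 25.8) against 13.5 in Y-linked ECs (11.3 to 16.1) in Control, and 18.5 against 22.3 in Dach1OE. Dendritic markers were 212 against 244 CPM and 151 against 141, and B-lineage markers 34.8 against 36.8 and 36.8 against 39.6. The part of these lists in the difference was not tested.

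The contrast was seen in sinusoidal ECs (45.2 against 10.98 CPM in Control and 18.3 against 9.99 in Dach1OE, where the interval of the log2 difference of 0.87 barely excluded 0, 0.01 to 1.79), arterial ECs (49.6 against 6.64 and 36.1 against 8.63) and type R ECs (63.4 against 5.56 and 50.4 against 6.44). In sinusoidal ECs of Dach1OE H2-Aa was 1.92 CPM in Xist against 5.29 in Y-linked cells, from 4 and 9 UMIs, a log2 difference of -1.46 whose interval spanned 0 (-3.61 to 0.38). Marrow stromal cells had 27.0 against 7.83 CPM in Control, but 50 of the 101 UMIs of the Xist cells came from 1 cell that also held 18 pan-blood UMIs. Without that cell, an alternative added after the data had been seen, the level was 13.6 CPM (10.2 to 17.9), which overlapped the interval of Y-linked cells (4.28 to 13.1). In Dach1OE the levels were 7.85 against 11.6 CPM, from 11 UMIs each. Chondrocytes did not share it, with 40.04 against 42.9 CPM in Control and 40.8 against 55.7 in Dach1OE, where Xist cells were 0.45 lower on the log2 scale (-0.58 to -0.32).

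**Figure D4:**
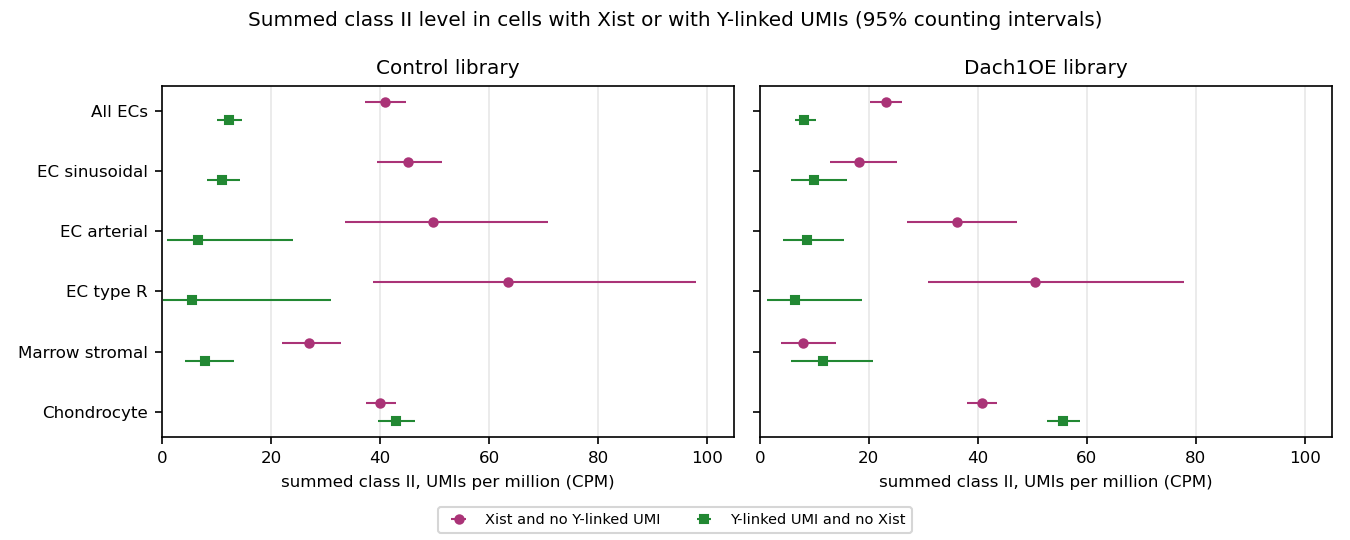
Summed level of Cd74, H2-Aa, H2-Ab1 and H2-Eb1 (CPM) in cells with Xist and no Y-linked UMI (circles) and cells with a Y-linked UMI and no Xist (squares), Control on the left and Dach1OE on the right, with 95% counting intervals. In all ECs the circles lie at 40.9 and 23.1 and the squares at 12.3 and 8.20, whereas chondrocytes show no excess of the circles.

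The lower level in Dach1OE was seen within either kind of cell over all ECs. In Xist ECs the 4 genes were 40.9 and 23.1 CPM, a log2 ratio of -0.82 (-1.05 to -0.60), and in Y-linked ECs 12.3 and 8.20, a log2 ratio of -0.58 (-1.02 to -0.15). For H2-Ab1 the ratios were -0.93 and -0.95. Cd74 was lower in Xist ECs (-0.71) and higher, with an interval that spanned 0, in Y-linked ECs (0.37, -0.72 to 1.49). Within type R ECs with Xist the levels were 63.4 and 50.4 CPM (-0.33, -1.30 to 0.64) and within arterial ECs with Xist 49.6 and 36.1 (-0.46, -1.13 to 0.24), so for these subtypes a difference was not detectable at this depth. Sinusoidal ECs with Xist were lower in Dach1OE (45.2 and 18.3 CPM, -1.30, -1.84 to -0.80). Among Y-linked cells the ratio was -0.14 in sinusoidal ECs (-1.01 to 0.67), 0.38 in arterial ECs (-1.82 to 3.59, from 2 and 11 UMIs) and 0.21 in type R ECs (-3.43 to 5.93, from 1 and 3 UMIs), so no difference was detectable in any of these 3 subtypes. The ratios of whole subtypes further above also held cells in neither group, whose level is not given on its own. In chondrocytes H2-Ab1 was higher in Dach1OE among Y-linked cells (37.9 and 49.2 CPM, 0.38) and not among Xist cells (33.6 and 34.6, 0.04, -0.11 to 0.19). The loading genes had the opposite pattern. H2-DMa was higher in Dach1OE among Xist cells (26.4 and 42.2 CPM, 0.68, 0.52 to 0.83) and not among Y-linked cells (31.5 and 29.3, -0.10, -0.28 to 0.07). H2-DMb1 was likewise higher among Xist cells (35.5 and 48.8 CPM, 0.46, 0.32 to 0.60) and not among Y-linked cells (40.3 and 41.5, 0.05, -0.11 to 0.20).

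Within the Dach1OE library, ECs could also be divided by a UMI of Dach1, a split added after the data had been seen. ECs with a Dach1 UMI (3684 cells, median 3460 UMIs) had the 4 genes at 10.1 CPM (8.56 to 11.9), and those without (6006 cells, median 2503 UMIs) at 20.5 (18.4 to 22.6). H2-Ab1 was 5.10 against 10.7 CPM, H2-Aa 2.17 against 5.21, H2-Eb1 0.747 against 1.97 and Cd74 2.11 against 2.58. Thus 3 of 4 tested members were at least 2-fold lower in ECs with Dach1, beside 2.16% of 14520 genes. This count rested on 1 EC without Dach1 that held 40 UMIs. Without it H2-Ab1 alone stayed 2-fold lower, just past that limit (5.10 against 10.2 CPM), H2-Aa was 2.17 against 4.33 and H2-Eb1 0.747 against 1.48, and the 4 genes together were 10.1 against 18.3 (16.4 to 20.3). Pan-blood genes moved the same way, at 113 against 156 CPM, and their part was not tested.

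With all cells kept, the difference was present in Xist ECs (16.4 against 28.5 CPM) and not seen in Y-linked ECs (8.27 against 8.13 CPM, 39 and 37 UMIs). The EC of 40 UMIs held 9 H2-Eb1 UMIs against 6 in all Y-linked ECs of Dach1OE, so it was not one of them. The level of Xist ECs without that cell is not given, so the contrast with Y-linked ECs may rest on it. By subtype the levels were 5.15 against 44.2 CPM in type R ECs (4 and 30 UMIs), 7.24 against 24.7 in proliferating ECs and 7.71 against 17.1 in unassigned ECs. Without the EC of 40 UMIs the unassigned ECs without Dach1 were at 11.2 CPM, and the log2 difference of -0.54 spanned 0 (-1.13 to 0.03). In arterial ECs (15.9 against 28.4 CPM), metaphyseal ECs (13.5 against 21.7) and sinusoidal ECs (10.6 against 14.9) the intervals overlapped, in arterial ECs only at the edge. A Dach1 UMI was found in only 153 Control ECs, whose level was 34.3 CPM against 25.8 in those without, with overlapping intervals and with pan-blood genes at 413 against 169 CPM.

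**Figure D5:**
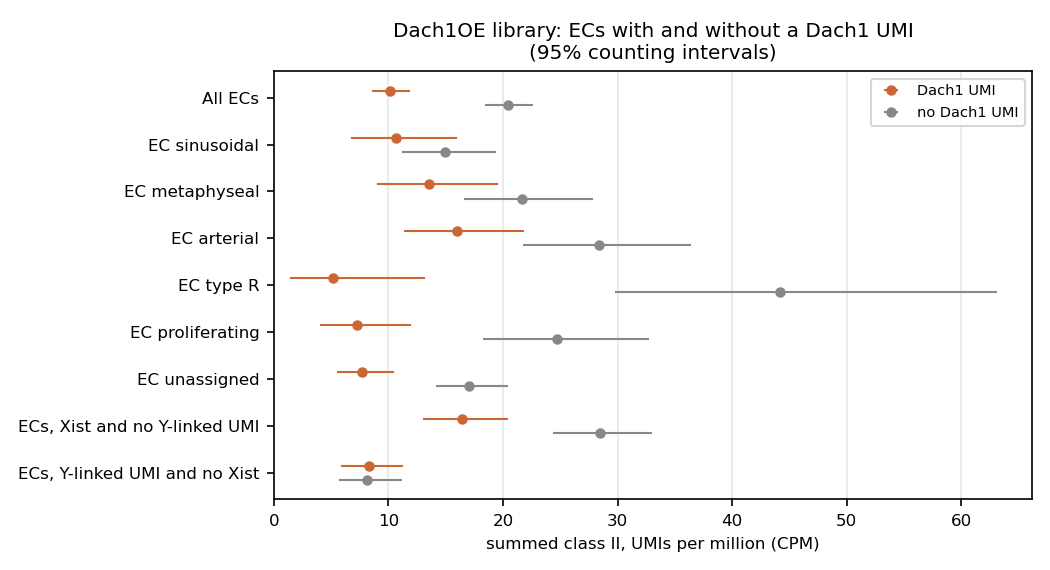
Summed level of Cd74, H2-Aa, H2-Ab1 and H2-Eb1 (CPM) in Dach1OE ECs with a Dach1 UMI (orange) and without (grey), in all ECs, by subtype and by Xist or Y-linked UMIs, with 95% counting intervals. The largest gap is in type R ECs, 5.15 against 44.2, and there is none in ECs with Y-linked UMIs, 8.27 against 8.13.

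In marrow stromal cells the 4 genes together were 17.0 CPM in Control (156 UMIs) and 9.38 in Dach1OE (37 UMIs). A single Control cell held 50 of the 156 UMIs, 16 of Cd74, 16 of H2-Aa, 14 of H2-Ab1 and 4 of H2-Eb1, together with 18 pan-blood UMIs. Marrow stromal cells with no pan-blood UMI had 11.6 CPM in Control and 9.10 in Dach1OE, with overlapping intervals (9.46 to 14.2 and 6.26 to 12.8), so the difference between the libraries was not seen there.

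Chondrocytes were split by genes of their maturation, a choice also made after the data had been seen. H2-Ab1 was 38.4 CPM in Control and 45.9 in Dach1OE chondrocytes with at least 3 UMIs of Ucma, a gene of the upper growth plate, and 17.1 and 18.7 in those with none. With Cnmd, the cartilage protein chondromodulin, it was 36.2 and 43.0 against 5.22 and 12.98, although cells without Cnmd were shallow, at medians of 3361 and 2878 UMIs. Cells with Col10a1, the collagen of hypertrophic cartilage, had less (26.6 and 36.4) than cells without (37.8 and 43.9), and so did cells with Ibsp, a gene of mineralizing cells (15.0 and 24.7 against 37.8 and 45.2). Cells with the proliferation gene Mki67 had 49.4 and 50.5 CPM against 32.9 and 40.04, and cells with Ihh 34.1 and 40.5 against 35.5 and 43.0. H2-Ab1 was therefore higher in Ucma+ and Mki67+ chondrocytes than in Ibsp+ chondrocytes of the same library.

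Across the 24 EC subtypes and non-blood classes of both libraries, Cd74 and H2-Aa followed each other most closely (Pearson r = 0.94 on log2(CPM + 1)), then H2-Aa and H2-Ab1 (0.83) and Cd74 and H2-Ab1 (0.70). H2-Ab1 and H2-DMa had 0.56, H2-Eb1 and Ciita -0.48. These points share libraries and depth and are not independent. Some rest on few UMIs of the 4 genes, as in fibroblasts (5 and 3) and metaphyseal stromal cells (4 and 3). The part of such low counts in r was not tested. Of 15657 genes the 10 most like the sum of the 4 genes over these points were Pfkfb3 (r = 0.84), Larp4, Rnpep, Rras2, Clk4, Tapbpl, Slc35g2, Fam129b, Rbm17 and Zfp330 (r = 0.80). Pfkfb3, an enzyme that promotes glycolysis, was 45.7 CPM in Control chondrocytes and 21.4 in Control ECs, and Tapbpl, a relative of tapasin in class I loading, 12.4 and 24.2.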

How the data were processed

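The members and gene lists were chosen with earlier results of these data known. Per the file headers, the deposited counts came from release 1.11 of the BD Rhapsody WTA pipeline of the authors, run on GRCm38 with GENCODE vM19, intronic reads included, and the labels name mm10. The counts are UMIs after recursive substitution error correction, with no normalization, and all count columns of the tables were mapped (0 left unused). Cells with 500 to 6000 genes and under 25% mitochondrial UMIs were kept. A cell took the type with the most detected markers (at least 3, leading other families of types by 2 and types of its own family by 1), and ECs took the subtype whose count of detected markers, standardized over ECs, led by 0.5 or more. Ungated cells were 11.2% and 12.9%. Scrublet (scanpy 1.11.5) marked 6.62% and 6.74% of cells, which stayed in. UMIs were summed per type and library and divided by their total. CPM have exact Poisson, shares exact Clopper-Pearson and ratios exact conditional binomial intervals at 95%. Genes with at least 20 UMIs over both sides of a comparison were counted past 2-fold. Whether reads were counted by strand is not given in the sources used here. Depth was 1.51 and 1.45 reads per UMI and 139955347 and 162789363 UMIs in kept cells. Named genes were, by rule, the 5 members, every gene of the chain, loading and regulator lists, the 2 highest in ECs of each other list, and the 10 most like the members; other genes were picked after their values were seen. Ifi30 had no row. Coordinates are from GENCODE vM21 and promoters from RefSeq, both on GRCm38. Tools were Python 3.11.15, numpy 2.4.6, scipy 1.17.1, pandas 2.3.3, edgeR 4.0.16 (for TMM scaling only) and matplotlib 3.10.9. The log2 ratio per gene and its interval were tested on simulated EC counts with known ratios, which held no spread between cells or mice. Alternatives were raw UMIs, pan-blood-free cells, doublets left out, a stricter gate, other limits on cells, per-cell means, thinning, cells of either sex, TMM and equal subtype weights.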

Additional observations from a re-analysis of the deposited data

Results flagged for a closer look

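The Dach1OE-over-Control ratio of H2-Ab1 and of the 4 summed genes differed in sign between ECs and chondrocytes. H2-Ab1 had a log2 ratio of -0.93 in ECs and 0.25 in chondrocytes, and the 4 summed genes -0.71 and 0.20, with intervals that did not overlap. In chondrocytes with Xist the ratio was 0.04 for H2-Ab1 (-0.11 to 0.19) and 0.03 for the sum (-0.11 to 0.17), and in those with Y-linked UMIs it was 0.38 for each. With 1 library per group the difference was not tested.

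Xist cells exceeded Y-linked cells in ECs and not in chondrocytes. The log2 difference of H2-Ab1 was 1.99 in Control and 2.01 in Dach1OE ECs, and -0.17 and -0.51 in chondrocytes. That of the 4 summed genes was 1.74 and 1.49 in ECs and -0.10 and -0.45 in chondrocytes. This was not tested either, and each side is a single mouse in each library.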

How the results depend on the processing

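No paired analysis was possible because the labels give no replicate numbers and each group has 1 library, and for the same reason no library could be left out. The summed EC level was lower in Dach1OE under 12 of 12 alternatives (log2 -1.11 to -0.58), and so were H2-Ab1 (-1.27 to -0.84), H2-Aa (-0.93 to -0.37) and H2-Eb1 (-1.10 to -0.05), but Cd74 under 11 and Ciita under 10. Without pan-blood UMIs the summed EC ratio was -1.11 and the Dach1OE EC level 12.0 CPM. The excess of arterial ECs (summed, log2) in Control was 1.48 without pan-blood UMIs, 0.46 with 1000 to 6000 genes, 1.44 as a mean per cell and 1.83 thinned, and in Dach1OE 1.10 without pan-blood UMIs and 0.12 under 10% mitochondrial UMIs. The excess of type R ECs was 1.90 in Control when thinned and 1.34 in Dach1OE under the stricter gate. H2-Ab1 was higher in type R ECs under only 8 of 10 alternatives in each library (lowest -0.22 in Control and -0.84 in Dach1OE). H2-Aa was higher in arterial ECs of Control under 7 of 9 (lowest -0.95). In Xist cells alone the arterial excess was 0.30 in Control, the type R excess 1.19 in Dach1OE, EC levels 40.9 and 23.1 CPM, chondrocyte H2-Ab1 34.6 in Dach1OE, and sinusoidal ECs of Control turned from lower to higher (0.27 summed, 0.11 for H2-Ab1). In Y-linked cells alone EC levels were 12.3 and 8.20 CPM, chondrocyte H2-Ab1 37.9 and 49.2, the arterial excess -0.91 in Control (from 2 UMIs) and 0.087 in Dach1OE (-0.11 for H2-Ab1), the type R excess -1.16 and -0.36, sinusoidal ECs of Dach1OE were higher (0.36 summed, 1.74 for H2-Aa), though there the pooled intervals spanned 0, and the EC ratio of Cd74 0.37. Chondrocyte H2-Ab1 was 31.8 and 38.3 CPM as a mean per cell and, in Dach1OE, 39.2 thinned. Shares of cells with a class II UMI were 5.25% and 2.78% of ECs and 25.2% and 27.2% of chondrocytes unthinned, and 3.503%, 1.90%, 6.48% and 8.10% at 2000 UMIs. The causes were not tested. Depth limits the rarest genes most, since Ciita had 28 and 19 UMIs in ECs.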
